A study of Mus musculus with 2 samples.

Results

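The genes described here are 10 inflammatory CC chemokines of the mouse, Ccl2, Ccl3, Ccl4, Ccl5, Ccl7, Ccl8, Ccl11, Ccl17, Ccl20 and Ccl22, among 37008 gene names on a single-color Agilent expression array. They were picked by gene name from both scanner files, control spots excluded, which gave 11 probes of 60 bases, each printed as 1 spot. Ccl4 had 2 probes and every other gene had 1, and no spot of these probes carried an outlier mark. The 2 arrays held RNA of lymph node cells sorted as negative for CD45, the pan-leukocyte surface antigen, from female mice. The normal array came from mice without a tumor. The tumor-draining array came from nodes draining the 4T1 mammary carcinoma, placed under the skin at the mammary gland 2 weeks earlier, in mice that the labels give as C57BL/6. 4T1 is known as a BALB/c line, so a mismatch of strains and the tumor itself cannot be told apart here. The sources used here do not give the number of mice behind an array or whether they were pooled.

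Chemokines are small secreted proteins that bind to the extracellular matrix and draw cells carrying matching G protein-coupled receptors. The CC family is named for a pair of adjacent cysteines near the start of the mature protein. Its inflammatory members are switched on by cytokines and microbial products in fibroblasts, endothelial cells, macrophages, dendritic cells and lymphocytes, and they recruit monocytes, eosinophils, T cells, natural killer cells and dendritic cells. In lymph nodes they act beside the homeostatic pair Ccl19 and Ccl21a, which place T cells and dendritic cells.

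Each group has 1 array, so no difference has a replicate check and no test was run. Differences are log2 tumor-draining minus log2 normal, after each array was scaled to its 75th percentile, and a gene is called higher or lower at 2-fold or more. The signal of each chemokine is given with the error that the scanner software assigned to that spot. For all of them but Ccl22 this error was nearly the same share of the signal. Any 2-fold gap exceeds it, so a gap wider than this error is no added support. Spot SDs came from 300 other probes printed 10 times, 252 of them with signals of 10000 to 250000. The median spot SD of a difference was 0.11 for signals of 30 to 100 (6 probes). It was 0.073 for 100 to 1000 (12 probes) and 0.056 for 1000 to 10000 (24 probes). Across 7599 genes with several probes, the SD between probes of a gene had a higher median, 0.27. Neither error covers differences between mice or sorts, and precision is limited by having 2 arrays. In such bulk samples fewer cells of a type and less RNA per cell cannot be told apart. All 13 fibroblastic reticular, 12 blood endothelial and 8 lymphatic endothelial marker genes were lower in the tumor-draining sample. Ccl21a and Pdpn stand in both the fibroblastic and the lymphatic list. All 8 pan-leukocyte genes were higher. Scaled to spike-in RNA, 10, 11 and 7 of those stromal genes remained lower by 2-fold, and all 8 leukocyte genes were higher. That scaling calls 45.9% of all genes higher and 8.02% lower, and counts under it are to be read against these shares. With the mean over all probes of a gene, Col1a1, which has a probe at 0.86, and Kdr came within 2-fold, which leaves 12 fibroblastic and 11 blood endothelial genes lower. Ptprc, which encodes the CD45 antigen used to exclude cells, was above background on both arrays, at 3702 in the normal and 17432 in the tumor-draining sample.

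The chemokines split into genes that were lower, genes that were higher and genes within 2-fold. Ccl2, Ccl7, Ccl11 and Ccl20 were lower with the tumor, and Ccl3 and Ccl4 were higher. Ccl5, Ccl8 and Ccl17 were within 2-fold, and Ccl22 was not above background on either array. The 4 lower genes were 44.4% of the 9 measured chemokines, and the 2 higher ones were 22.2%. Over all 24656 genes above background on at least 1 array, 16.5% were lower and 11.5% were higher, or 28.0% in either direction. The median difference was -0.62 for the 9 chemokines and 0.10 for all genes so measured. The chemokines spanned 5.72 on the log2 scale, from -3.40 for Ccl7 to 2.32 for Ccl3.

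**Figure D1:**
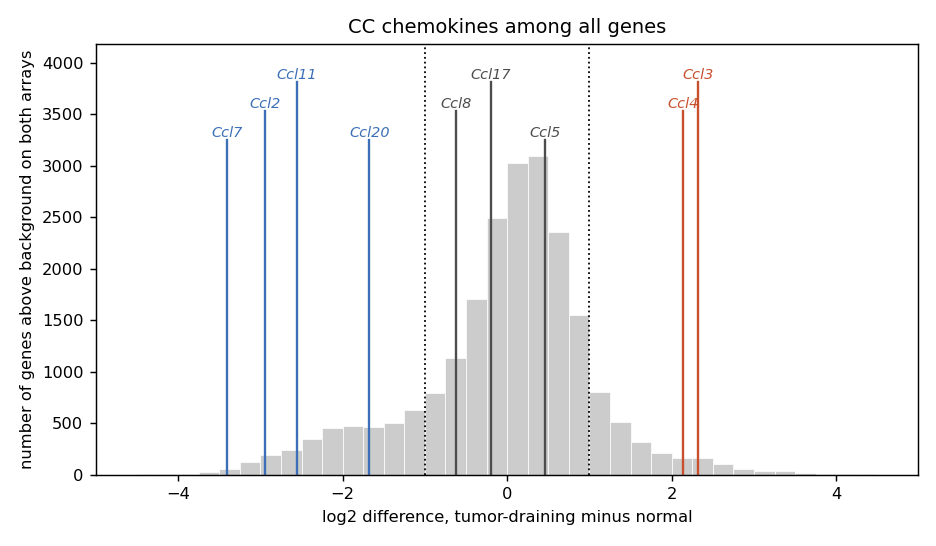
The gray bars count the genes above background on both arrays by log2 difference (tumor-draining minus normal, in steps of 0.25), and each vertical line is 1 chemokine. Dotted lines mark 2-fold; Ccl7, Ccl2, Ccl11 and Ccl20 lie to the left of them, Ccl4 and Ccl3 to the right, and Ccl8, Ccl17 and Ccl5 between them.

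Promoter windows came from RefSeq with the GRCm38.p6 build and matched 5 of the 10 genes, Ccl3, Ccl8, Ccl17, Ccl20 and Ccl22. The others are Ccl2, Ccl4, Ccl5, Ccl7 and Ccl11. The 200 bases before the start are shown for the chemokine with the highest difference, for one within 2-fold and for one that was lower, to set promoters beside their values. Capitals mark matches, on either strand, to the kappa B motif bound by NF-kB factors or to TATAAA, the core of the TATA box. The windows are chr11:83649379-83649578 on the minus strand for Ccl3, chr11:82114985-82115184 on the plus strand for Ccl8 and chr1:83116566-83116765 on the plus strand for Ccl20.
Ccl3: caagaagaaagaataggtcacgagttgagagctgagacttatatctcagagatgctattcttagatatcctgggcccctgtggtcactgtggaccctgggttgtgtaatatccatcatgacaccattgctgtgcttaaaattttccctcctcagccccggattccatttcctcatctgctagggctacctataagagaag
Ccl8: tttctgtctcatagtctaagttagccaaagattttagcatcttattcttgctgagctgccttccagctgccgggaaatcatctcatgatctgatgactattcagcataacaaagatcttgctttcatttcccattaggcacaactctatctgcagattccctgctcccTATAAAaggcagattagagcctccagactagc
Ccl20: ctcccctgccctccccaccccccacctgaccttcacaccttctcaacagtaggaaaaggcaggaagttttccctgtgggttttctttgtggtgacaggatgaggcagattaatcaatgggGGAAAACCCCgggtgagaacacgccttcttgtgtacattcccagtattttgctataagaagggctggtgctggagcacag
The Ccl20 window had a kappa B match from 80 to 71 bases before the start. The Ccl8 window had TATAAA from 32 to 27 bases before it, and the Ccl3 window had neither motif. Of the 5 chemokine genes with an entry, 1 held the kappa B motif and 1 held TATAAA, against 6.07% and 9.96% of all 32851 windows of that length. The interferon-type GAS motif TTCNNNGAA was found in Ccl17 alone of the 5, from 99 to 91 bases before the start, and in 5.49% of all windows. The AP-1 motif TGANTCA was in none of the 5 and in 5.48% of all windows. No matches overlapped. A match describes letters in the window and not a bound site.

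Ccl2, the main attractant of inflammatory monocytes and the principal ligand of Ccr2, read 25577 with a spot error of 2558 in the normal sample. In the tumor-draining sample it read 3178 with an error of 318. The normal array was the high one. The scaled difference was -2.95, or 7.71-fold lower, and 275 of the 22152 genes above background on both arrays had a lower difference. The Ccl2 probe lies at chr11:81850650-81850709, in mm9 as annotated in the array files, which do not state exon or UTR.

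Ccl7, a monocyte attractant that also acts on Ccr2, read 8166 with an error of 817 in the normal sample, against 741 with an error of 74.1 in the tumor-draining one. It had the lowest value of the chemokines, with a difference of -3.40, or 10.6-fold lower, and 76 of 22152 genes lay below it. Ccl8, which in mice is known as an attractant of cells carrying Ccr8, had signals of 601 (error 60.1) and 374 (error 37.5). Its difference of -0.62 was 1.54-fold lower, which is wider than the spot SD of 0.073 and within 2-fold. The difference of Ccl8 lay 2.33 above that of Ccl2 on the log2 scale. Ccl12, the other mouse attractant of Ccr2 cells, was dim, at 50.04 and 24.6, with a difference of -0.96. Loess normalization took it to -1.09, normexp background correction to -0.35 and scaling to spike-in RNA to -0.15.

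The receptor of the monocyte attractants went the other way. Ccr2, carried by inflammatory monocytes and some lymphocytes, read 29.5 in the normal sample and 215 in the tumor-draining one, a difference of 2.93, or 7.61-fold higher, that was 1.69 with normexp background correction. Ccr8, found on T cell subsets, went from 25.7 to 64.0, a difference of 1.38 that was 0.59 with normexp. Of 11 monocyte and macrophage markers, 3 were lower and none was higher by 2-fold, although 5 were higher and 2 lower when scaled to spike-in RNA. The list's median was -0.66, with 8 of 11 within 2-fold. Their summed signal was 48681 without and 18781 with the tumor, of which Ly6c2 alone made 29694 and 10366. The lowest were Marco at -3.36 and Mrc1 at -2.65, both receptors known from tissue macrophages but not only from them. Which cells carried the Marco and Mrc1 signals was not tested. Adgre1, which encodes F4/80, stood at 0.96, or 1.78 when scaled to spike-in RNA. Ly6c2, a monocyte gene that endothelial cells share in part, was at -1.46, or -0.64 with that scaling. The part of these cells in the Ccl2, Ccl7 and Ccr2 differences was not tested.

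Ccl11, or eotaxin, draws eosinophils through Ccr3. It read 9286 with an error of 929 in the normal sample, against 1515 with an error of 152 in the tumor-draining one. The difference was -2.55, or 5.87-fold lower, and 611 of 22152 genes lay below it. Ccr3 was not above background on the normal array, at 5.57, and reached 17.4 on the tumor-draining array, which makes it at least 2.36-fold higher, or within 2-fold with normexp. Prg2, an eosinophil granule gene, had signals of 242 and 145. Epx, another one, had 18.01 on the normal array and 6.77, not above background, on the other. Mcpt8, a basophil protease, was at 2.75. Among 10 mast cell, basophil and eosinophil markers, 4 were higher and 1 was lower, or 5 and 0 when scaled to spike-in RNA, and their summed signal was 1703 and 1985. With normexp only Mcpt8 of the 4 kept a 2-fold difference. Their part in the Ccl11 and Ccr3 values was not tested.

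**Figure D2:**
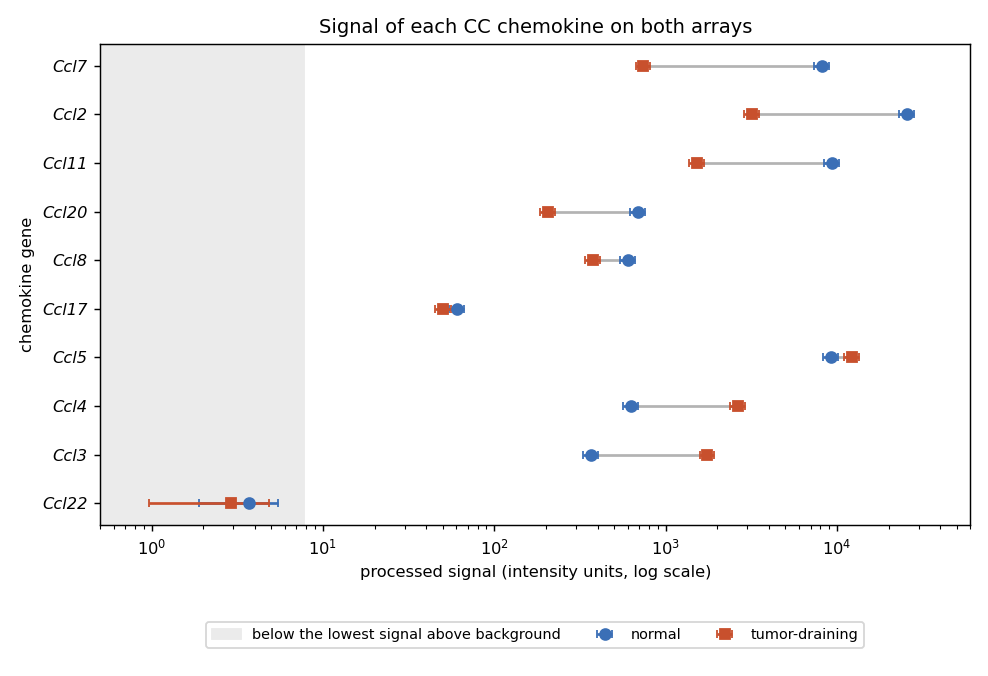
Processed signal of each chemokine on the normal array (blue circles) and the tumor-draining array (orange squares), on a log axis, with the error of the spot given by the scanner software as bars. Ccl7 and Ccl2 show the widest gaps toward lower signal, Ccl4 and Ccl3 the widest toward higher signal, and both Ccl22 points lie in the gray zone below the lowest signal above background.

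Ccl3 and Ccl4, the macrophage inflammatory proteins 1 alpha and 1 beta, are made by activated T cells, natural killer cells and myeloid cells and draw T cells, natural killer cells and monocytes. Ccl3 acts in part through Ccr1. Ccl3 read 366 with an error of 36.6 in the normal sample, against 1750 with an error of 175 in the tumor-draining one. The tumor-draining array was the high one. The difference was 2.32, or 4.996-fold higher, and 392 of 22152 genes had a higher one. The Ccl3 probe lies at chr11:83461358-83461417 in mm9.

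Ccl4 repeated that shift. Its brighter probe read 627 with an error of 62.8 in the normal sample, against 2646 with an error of 265 in the tumor-draining one, a difference of 2.14, or 4.402-fold higher. The other Ccl4 probe read 446 and 1884 and also gave 2.14. The 2 probes share a run of 46 bases and are therefore not independent readings. Ccl3 and Ccl4 differed by 0.18 from each other, which is under the between-probe SD of 0.27. The difference of Ccl4 lay 5.09 above that of Ccl2 on the log2 scale, a quantity that no scaling of a whole array alters.

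Ccl5, or RANTES, an attractant of T cells and monocytes that memory T cells and natural killer cells store, was bright on both arrays. It read 9242 with an error of 924 in the normal sample, against 12193 with an error of 1219 in the tumor-draining one. The difference was 0.46, or 1.38-fold higher. That is beyond the spot SD of 0.056 and within 2-fold, and scaling to spike-in RNA raised it past 2-fold, to 1.28, while loess lowered it to 0.05. The difference of Ccl4 lay 1.68 above that of Ccl5.

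Ccr1, a receptor of Ccl3 and Ccl5, was not above background on either array. All 10 markers of cytotoxic and natural killer cells were higher, from 1.22 for Prf1, which encodes perforin, to 2.56, or 1.90 with normexp, for Gzmb, which encodes granzyme B. Their summed signal was 4064 without and 16859 with the tumor. All 10 T cell markers were higher, from 1.49 for Cd4 to 2.79 for Cd28, with summed signals of 15497 and 71273. The differences of Ccl3 and Ccl4 lie within both ranges, and that of Ccl5 lies below both. Those of Ccl3 and Ccl4 also lie within the B cell range (0.76 to 2.94) and the dendritic cell range (-2.54 to 2.94). Their placement is therefore not particular to T and cytotoxic cells. With normexp Prf1 was at 0.92 and Ncr1, a natural killer cell receptor, at 0.99. The part of any of these cell types in the Ccl3, Ccl4 and Ccl5 values was not tested.

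Ccl17 and Ccl22 are ligands of Ccr4 made chiefly by dendritic cells and macrophages, and they draw regulatory and type 2 helper T cells. Ccl17 was dim, at 60.3 with an error of 6.23 in the normal sample, against 50.5 with an error of 5.32 in the tumor-draining one. Its difference of -0.19 was 1.77 times the spot SD at that signal and under the between-probe SD, and it turned to 0.62 when scaled to spike-in RNA. Ccl22 read 3.68 in the normal and 2.91 in the tumor-draining sample, with errors of 1.79 and 1.94. The lowest signal of a probe above background was 7.72 and 8.27, and the median of the 308 negative control spots was 1.68 and 1.81. Both Ccl22 signals exceeded most of these control spots but not the highest, at 17.39 and 21.95. The scanner software marked the Ccl22 spot as positive and significant on both arrays. On neither array did it mark that spot as well above background, which is the mark used here. Only a bound is known for Ccl22 on these arrays, and no fold is given.

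Ccr4 was dim but above background on both arrays, at 9.47 and 60.9, a difference of 2.75 that was 0.85 with normexp. Of 11 measured dendritic cell markers, 4 were higher and 1 was lower, or 5 and 1 when scaled to spike-in RNA, and 6 were within 2-fold, with a median of 0.05. The summed signals were 56995 and 120765, of which Ccr7 made 11915 and 52409 and Cd83 made 3933 and 28970. Siglech, a gene of plasmacytoid dendritic cells, read 39238 and 37544. Cd83 (2.94) and Ccr7 (2.20), both of which lymphocytes also express, were highest. Zbtb46, a transcription factor of classical dendritic cells that endothelial cells share, was lowest at -2.54, or -1.35 with normexp, followed by Clec9a at -0.82. Xcr1, a receptor of cross-presenting dendritic cells, was not above background on either array.

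Ccl20 draws cells that carry Ccr6, among them B cells, dendritic cell precursors and T helper 17 cells. It read 688 with an error of 68.8 in the normal sample, against 207 with an error of 20.7 in the tumor-draining one. The difference was -1.67, or 3.19-fold lower, with 2078 of 22152 genes below it, and it was -0.86 and thus within 2-fold when scaled to spike-in RNA. Ccr6 moved the opposite way, from 910 to 4815, a difference of 2.47, or 5.52-fold higher. Of 9 B cell markers, cells known to carry Ccr6, 7 were higher, or 9 when scaled to spike-in RNA, from 0.76 for Cd79b to 2.94 for Bank1. Their summed signal was 26852 and 63196. The part of B cells in the Ccr6 value was not tested.

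Ordered by difference, the measured chemokines ran Ccl7, Ccl2, Ccl11, Ccl20, Ccl8, Ccl17, Ccl5, Ccl4 and Ccl3. Neighbors differed by 0.39 to 1.68 on the log2 scale, except Ccl4 and Ccl3, whose gap of 0.18 was 1.78 times its spot SD. The gaps from Ccl7 to Ccl2 (0.45), Ccl2 to Ccl11 (0.39) and Ccl8 to Ccl17 (0.43) were close to the 0.39 that the between-probe SD gives for a gap, so the order within those pairs is weakly held. Probes of related chemokines could read each other's transcripts, which was not tested. Probe sequences were compared only with each other, and not with the transcripts of other genes. Over 252 pairs of probes from different CC chemokine genes, with at least 1 of the 10 genes in each pair, the longest shared run was 13 of 60 bases, between Ccl8 and Ccl12, and the median was 6.

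Position on chromosome 11 followed the split in part. Ccl2, Ccl7, Ccl11, Ccl12 and Ccl8 lie in that order within 79.5 kb, and their differences were -2.95, -3.40, -2.55, -0.96 and -0.62. The value of the dim Ccl12 was -0.35 with normexp. Ccl1, the next gene, at 140 kb from Ccl2, went from 13.1 to 72.3, a difference of 2.52, or 0.96 with normexp. The second cluster starts 1.41 Mb beyond Ccl8 and holds Ccl5, Ccl9, Ccl6, Ccl3 and Ccl4 within 139 kb. There Ccl9 was lower at -1.35, or -0.53 when scaled to spike-in RNA, and Ccl6 was higher at 2.04, so neither cluster moved as a unit. From 250 kb before Ccl2 to 250 kb after Ccl4, 30 other genes with standard symbols were measured, CC chemokines left out. Of these 10 were higher, 5 lower and 15 within 2-fold, against 11.5% higher and 16.5% lower over all genes. The higher ones include the neighbors Slfn1, Slfn2, Slfn4, Slfn8, Slfn9 and Slfn10-ps, while Slfn5 was lower and Slfn3 within 2-fold. The mm9 probe positions not given above are chr11:81860656-81860715 for Ccl7, chr11:81876369-81876428 for Ccl11, chr11:81930108-81930167 for Ccl8, chr11:83339296-83339355 for Ccl5 and chr11:83478052-83478111 for the brighter Ccl4 probe. The others are chr1:83115500-83115559 for Ccl20, chr8:97335770-97335829 for Ccl17 and chr8:97274709-97274768 for Ccl22. Ccl17 and Ccl22 lie 61.1 kb apart on chromosome 8, and Ccl20 lies on chromosome 1.

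**Figure D3:**
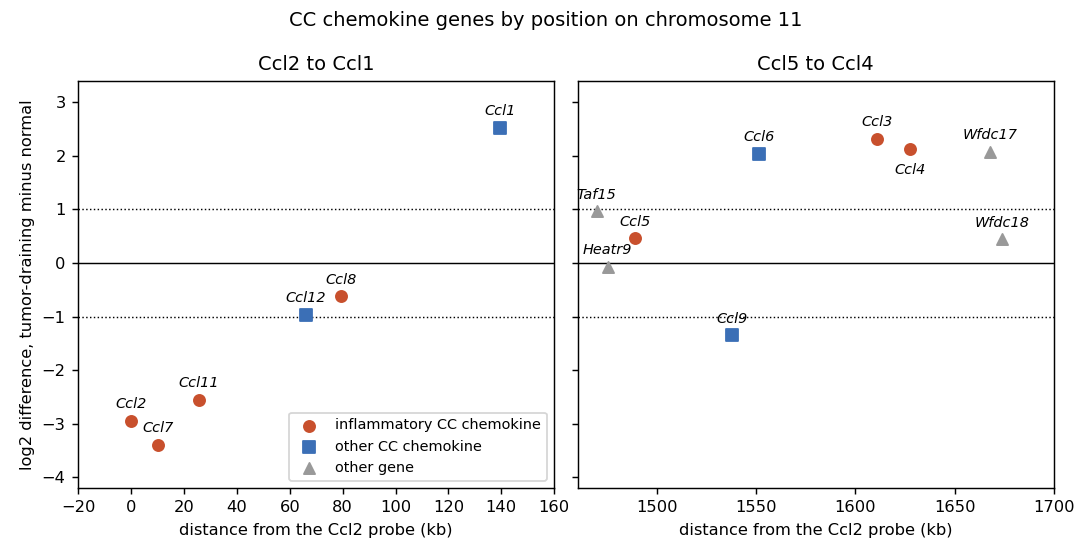
Log2 difference (tumor-draining minus normal) of genes with a standard symbol by the distance of their probes from the Ccl2 probe in kb, in the clusters around Ccl2 (left) and around Ccl5 (right). Dotted lines mark 2-fold; Ccl2, Ccl7 and Ccl11 lie below -2, Ccl1, Ccl6, Ccl3 and Ccl4 above 2, and Ccl9 at -1.35 beside Ccl6 at 2.04.

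Among the other CC chemokines, 11 genes listed for comparison, 10 were above background on at least 1 array. Of these 5 were lower and 2 higher, with a median of -1.28, or -1.16 with Ccl28 at its bound. When scaled to spike-in RNA 3 were lower and 2 higher. Ccl19 and Ccl21a, which place T cells and dendritic cells, were lowest, at -3.20 and -2.31. The differences of Ccl2 and Ccl11 lie between these values, and that of Ccl7 lies below both. Ccl27a, a skin chemokine, was at -2.18 on its brightest probe, or -1.40 with normexp, and at -0.44 on another, and Ccl24, a second eotaxin, went from 44.3 to 14.96, or -1.503. Normexp took Ccl24 to -0.46. Ccl25, known from thymus and gut, was at -0.31 with another probe at 0.70. Ccl28 was above background on the normal array only, at 9.89, and Ccl26 on neither.

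Receptors of CC chemokines and their atypical relatives formed separate groups. Of 10 genes, 9 were above background on at least 1 array, with 6 higher and 2 lower both in the scaling used here and when scaled to spike-in RNA. The 6 higher genes were Ccr2, Ccr3, Ccr4, Ccr6, Ccr8 and Ccr10, all of them signaling receptors, and with normexp only Ccr2 and Ccr6 kept a 2-fold difference. Ccr10, which binds Ccl27a and Ccl28, went from 36.9 to 83.4. The 2 lower genes were the scavengers Ackr1 and Ackr2, which bind inflammatory CC chemokines without signaling through G proteins. Ackr1, a receptor of venular endothelium, went from 917 to 134, a difference of -2.71. Ackr2, known from lymphatic endothelium, went from 1779 to 446, a difference of -1.93. Ccrl2, which presents chemerin, was within 2-fold at -0.51. The list's median was 1.38, or 1.24 with Ccr3 at its bound. Among the 4 brighter genes of the list it was -1.22.

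Cytokines known to induce these chemokines were also divided. Of 13 measured, 5 were higher and 3 lower, or 8 and 3 when scaled to spike-in RNA. Ifng, an inducer of many chemokines in macrophages, went from 557 to 2466 (2.21), and Il1b from 105 to 448 (2.15, with another probe at 0.57). Il6, made by stromal cells among others, went from 8845 to 1281 (-2.73). Il4, the type 2 cytokine that induces Ccl11, Ccl17 and Ccl22 in responsive cells, went from 38.7 to 352 (3.25, or 2.04 with normexp), and Lta, a lymphotoxin gene, from 68.7 to 394 (2.58, or 1.95 with normexp). Il33 and Tslp, alarmins of stromal and epithelial cells, were lowest, at -3.08 and -3.02, but Tslp read only 12.7 with the tumor, and with normexp it was at -1.24, above Il6 at -2.69. Tnf was within 2-fold at 0.93, or 1.75 when scaled to spike-in RNA. Il1a was not above background on either array.

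Receptors for those cytokines were mostly lower or within 2-fold. Of 12 measured, 6 were lower and 1 higher, or 6 and 4 when scaled to spike-in RNA. Il1r1, the signaling receptor for interleukin-1, was lowest at -2.46, and Il13ra1 followed at -2.29. Tnfrsf1b, the tumor necrosis factor receptor found mainly on leukocytes, was highest at 1.63, with another probe at 0.81. Il4ra was next at 0.73.

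NF-kB factors and their feedback genes, which act between some of those receptors and chemokine promoters, stayed largely within 2-fold. These are RNA levels, and the activity of the factors was not measured. Of 13 measured, 11 were within 2-fold and 2 were higher, with a median of 0.07. When scaled to spike-in RNA 6 were higher, a share near the 45.9% of all genes under that scaling. Rel, a lymphocyte-rich family member, was at 2.23, and Tnfaip3, the feedback enzyme A20, was at 1.21, or 0.78 after loess. Nfkbiz and Tnip1 were lowest on their brightest probes, at -0.36 and -0.29, but another Nfkbiz probe was at 0.27.

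Genes whose products trim, bind or anchor chemokines were lower in 7 of 10 cases, or in 3 with 1 higher when scaled to spike-in RNA. Tnfaip6, a secreted matrix protein, was lowest at -2.55, and Mmp9, a gelatinase, was next at -2.42. With normexp Mmp9 was at -1.39, and Mmp14, a membrane-bound protease, was next lowest at -1.74. Dpp4, the peptidase that trims chemokine ends, was at -0.49, and Sdc4, a heparan sulfate proteoglycan, was at 0.21.

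**Figure D4:**
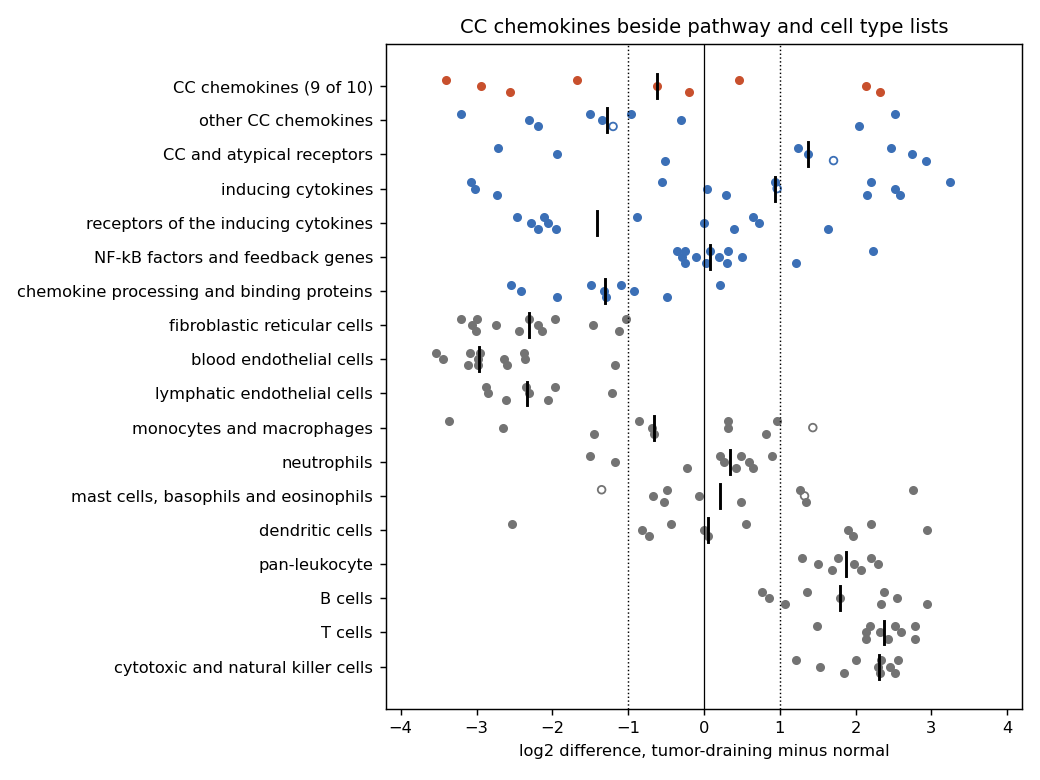
Each point is 1 gene's log2 difference (tumor-draining minus normal), by list, for genes above background on both arrays (filled) or on 1 array (open); black bars are list medians and dotted lines mark 2-fold. The chemokines spread from -3.40 to 2.32, while fibroblastic and endothelial markers all lie at or below -1.03 and T cell, cytotoxic and pan-leukocyte markers all at or above 1.22.

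Stromal markers covered a range similar to that of the lower chemokines. The fibroblastic reticular list ran from -3.20, which is Ccl19, to -1.03. Its median of -2.31 is Ccl21a, and its summed signals were 156877 and 39821. The blood endothelial list ran from -3.54 to -1.17, with a median of -2.97 and summed signals of 31742 and 4117. The lymphatic endothelial list ran from -2.87 to -1.22, with summed signals of 43588 and 8823. Ccl2, Ccl11 and Ccl20 lie within the fibroblastic and the blood endothelial ranges, and Ccl7 lies within the blood endothelial range and below the fibroblastic one. Ccl11 and Ccl20 also lie within the lymphatic range. The monocyte and macrophage range (-3.36 to 1.44) holds Ccl2, Ccl11 and Ccl20 as well, while Ccl7 lies just below it. Ccl20 also lies within the dendritic cell range (-2.54 to 2.94). The placement of Ccl2, Ccl11 and Ccl20 is therefore not particular to stromal lists. Normexp took Flt4, the lowest lymphatic gene, from -2.87 to -0.998. The part of a lower stromal share in the chemokine values was not tested. Neutrophil markers had a median of 0.34, with none higher and 2 lower of 10, against 16.5% lower over all genes. When scaled to spike-in RNA 7 were higher and none lower, against 45.9% and 8.02% over all genes.

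For the lowest and the highest chemokine, the genes with the nearest pair of scaled values over the 2 arrays were looked up among 14851 genes with standard symbols above background on both. Nearest to Ccl7 were Smoc2 (-3.44), Gdf10 (-3.51) and Clec3b (-3.30), at distances of 0.12 to 0.19 on the log2 scale. Nearest to Ccl3 were B4galnt1 (2.19), Tspan32 (2.16) and Klrd1 (2.34), at distances of 0.10 to 0.15. With 2 arrays this likeness describes a level and a difference only.

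The chemokine calls held under most other processing, with 2 exceptions. Probe means, other background filters and kept outlier spots could hardly change a chemokine's value by design. Only Ccl4 had 2 probes, no spot of these probes was an outlier, and all 9 measured genes were above background on both arrays. Median scaling moved all genes by little, and the authors' table holds nearly the same signals. Over 11 alternatives, Ccl2 ranged from -3.34 to -2.13, Ccl7 from -3.62 to -2.58 and Ccl11 from -2.83 to -1.74, all of them lower by 2-fold throughout. Ccl3 ranged from 2.15 to 3.14 and Ccl4 from 1.96 to 2.96, higher throughout. Spike-in RNA, read on 6 probes, gave -0.82 as its median difference; scaling by it raised every gene by that amount, the median of all genes from 0.10 to 0.92, and the share of calls that were higher from 41.0% to 85.1%. Under it Ccl5 became higher and Ccl20 came within 2-fold, and Ccl8 turned from -0.62 to 0.20. In the authors' deposited table, Ccl2 differed by -3.18, Ccl7 by -3.44, Ccl11 by -2.61, Ccl3 by 2.31, Ccl4 by 2.13 and Ccl20 by -1.65.

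**Figure D5:**
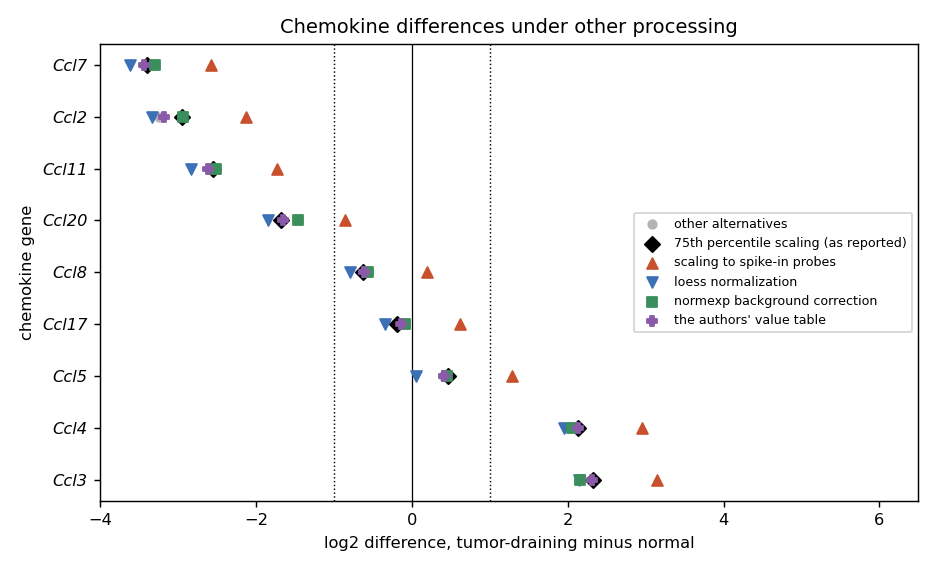
Log2 difference (tumor-draining minus normal) of each measured chemokine with the scaling used in the text (black diamonds) and under 11 alternatives, or 10 for Ccl17, with dotted lines at 2-fold. Scaling to spike-in RNA (orange triangles) lies 0.82 to the right of the diamonds and takes Ccl20 inside 2-fold and Ccl5 outside it.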

How the data were processed

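Spot intensities in the deposited files are linear and were background-subtracted by Agilent Feature Extraction 12.0.3.1 (protocol GE1_1200_Jun14, mm9 positions, per the file headers). Per the submitters' processing notes, Feature Extraction 10.7 and limma were used, in roles not given. Both arrays share a scan, per the file headers. The authors' deposited table holds log2 values (r = 0.9999 with both arrays' log2 signals, medians 4.85 and 4.86, sorted columns within 0.17). Its centering and exact scale stay unknown.

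Log2 processed signals were reduced by each array's 75th percentile (374 and 358) over 59305 non-control spots. The brightest probe stood for a gene, and it was above background where 50% of its spots were marked so. For a gene above background on 1 array, the fold is a bound against the higher of its dim signal and the lowest signal above background. No spot was saturated. Probes were named through RefSeq accessions (32994), current symbols (10224) or synonyms (520), and 12867 kept the file's name. The chemokines and lists were chosen with earlier results of these data known. Genes named were all 10 chemokines, the listed receptors, of which 1 is not reported here and is left out of the list's counts, the other CC chemokines, Ptprc, genes among the 2 highest and 2 lowest of other lists, and the nearest genes. Ly6c2, Ncr1, Tnf, Ifng, Il1b, Il6, Xcr1, Il1a, Siglech, Col1a1, Kdr and Mmp14 fall outside that rule and were picked after their values were seen. The fold rule was tested on simulated data. Work used Python 3.11.15, numpy 2.4.6, pandas 2.3.3, R 4.3.3 and limma 3.58.1. Alternatives were normexp (offset 50), quantile, loess (span 0.3), median and spike-in scaling, probe means, other background filters, outlier spots kept and the authors' table.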

Additional observations from a re-analysis of the deposited data

How the results depend on the processing

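Of 9 measured chemokines, 2 were higher and 4 lower, and this split was the same under 10 of 11 alternatives. When scaled to spike-in RNA it was 3 and 3. Probe means, other background filters and kept outlier spots could hardly have changed the split, so its sameness under them is no added support. Median scaling moved all genes by little, with their median going from 0.10 to 0.12. The authors' table holds nearly the same signals (r = 0.9999), so sameness under these 2 settings adds little. The chemokines' median of -0.62 turned to 0.20 with spike-in scaling and was -1.15 among 8 brighter genes, since Ccl17 drops out there. The receptor list's median of 1.38 turned to -1.22 among its 4 brighter genes. Over all genes 2824 were higher and 4071 lower, against 1392 and 2448 with normexp and 11314 and 1978 with spike-in scaling. Normexp, which adds an offset, pulls dim genes toward 0 by construction, and the receptors Ccr3, Ccr4, Ccr8 and Ccr10 are all dim. No paired analysis was possible because each group has 1 array. Signals near 8 are the lowest above background, so Ccl22 and Ccr1 have only bounds.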
